A study of Mus musculus with 4 samples.

Results

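The genes described here are surface receptors and effectors of mature neutrophils. They were chosen by symbol: Csf3r, Fpr1, Fpr2, Trem1, Retnlg, Clec4d, Clec4e, Asprv1 and Ly6g. Of these 9 genes, 8 had a row among the 23282 rows of the lung data. Ly6g was not analysed here. All 8 measured genes had a mean normalized read count of at least 4 over the libraries, a limit that 15164 rows passed. Expression was measured by 3' mRNA-seq of whole lung from CDF1 mice, with 4 libraries that cross treadmill exercise (E) with tumor (T) and 1 library per group. The groups were the normal control E(-)T(-), with neither exercise nor tumor, the normal exercise group E(+)T(-), the cancer control E(-)T(+) and the cancer exercise group E(+)T(+). Exercise was high-intensity aerobic running. Tumors came from tail vein injection of CT26, a colorectal carcinoma line of the mouse, a route that seeds tumor in the lungs themselves. The labels give postnatal day 28 for all groups and the series describes 10 mice in each. The methods give 4 weeks as the age at purchase and place sampling at the end of the experiment that followed, so it was later than day 28. All mice were male. Calf muscle came from a representative mouse of each group and the lungs were analysed in a like manner, but whether a lung library was 1 mouse or a pool is not stated outright. No difference below therefore has a replicate check, no test was made between groups, and the intervals given cover counting error only.

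Neutrophils are made in the bone marrow under the control of granulocyte colony-stimulating factor (G-CSF). Their precursors fill primary, then secondary and tertiary granules, and the mature cell switches to surface receptors that let it leave the marrow, sense microbes and crawl to a site of injury. The lung holds a large pool of neutrophils in its capillaries even in health. Among the genes here, Csf3r encodes the G-CSF receptor. Fpr1 and Fpr2 encode formyl peptide receptors, which sense bacterial and mitochondrial peptides. Trem1, Clec4d and Clec4e encode activating receptors that signal through adaptors with an ITAM, a tyrosine motif that recruits the kinase SYK. Retnlg encodes a secreted resistin-like protein of mouse granulocytes, and Asprv1 encodes an aspartic protease that is known both from neutrophils and from the outer epidermis. In whole lung, fewer cells of a type and less RNA per cell cannot be told apart.

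Several of these genes are neighbours in the genome (GENCODE M21, GRCm38, the mm10 build). On chromosome 17, Fpr1 lies at chr17:17876471-17883940 on the minus strand and Fpr2 at chr17:17887824-17893952 on the plus strand, 3883 bases apart. Fpr2 overlaps Fpr3 on the same strand, and Fpr3 had 0 reads in 3 libraries and 1 read in E(+)T(+). Trem1 is on the same chromosome at chr17:48232768-48246924 and overlaps AC241601.2 on the other strand. On chromosome 6, Clec4d at chr6:123262111-123275265 and Clec4e at chr6:123281789-123289870 lie 6523 bases apart on opposite strands, and Asprv1 is at chr6:86628164-86629710. Retnlg is at chr16:48872621-48874496 and Csf3r at chr4:126024550-126044440. All 8 are annotated as protein-coding.

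Promoters are shown because these genes shared a highest library, as described below. The 250 bases before each RefSeq start (GRCm38.p6) were searched on both strands for the letters GAGGAAGT, a PU.1 motif, TTGCNNAA, a C/EBP motif, and TTCNNNGAA, a STAT motif. PU.1 and C/EBP factors act in granulocyte development, and STAT3 acts downstream of the G-CSF receptor. Of the 8 measured genes, 0 held the PU.1 letters, 2 the C/EBP letters and 2 the STAT letters. Among all 32851 promoter windows the shares were 2.44%, 9.56% and 7.02%. A match is a description of the letters and not of binding. The 4 windows with a match are given below 5' to 3' on the gene's strand, with the matching letters in capitals: C/EBP for Retnlg (chr16:48872358-48872607, plus strand) and Clec4e (chr6:123289872-123290121, minus strand), STAT for Fpr2 (chr17:17887574-17887823, plus strand) and Trem1 (chr17:48232489-48232738, plus strand).
Retnlg: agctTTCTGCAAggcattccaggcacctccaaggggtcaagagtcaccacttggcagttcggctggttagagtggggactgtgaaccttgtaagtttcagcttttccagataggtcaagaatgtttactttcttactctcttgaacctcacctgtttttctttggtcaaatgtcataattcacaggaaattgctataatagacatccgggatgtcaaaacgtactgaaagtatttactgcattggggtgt
Clec4e: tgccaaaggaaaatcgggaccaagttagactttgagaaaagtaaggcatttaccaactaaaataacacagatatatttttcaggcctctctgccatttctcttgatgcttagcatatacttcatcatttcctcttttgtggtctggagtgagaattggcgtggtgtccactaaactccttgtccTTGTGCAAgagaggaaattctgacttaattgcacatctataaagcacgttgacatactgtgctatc
Fpr2: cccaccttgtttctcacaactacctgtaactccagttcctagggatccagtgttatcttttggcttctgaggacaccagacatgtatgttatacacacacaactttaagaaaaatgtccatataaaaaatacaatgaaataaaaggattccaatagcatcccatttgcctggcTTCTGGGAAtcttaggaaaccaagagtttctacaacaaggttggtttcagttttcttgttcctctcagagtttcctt
Trem1: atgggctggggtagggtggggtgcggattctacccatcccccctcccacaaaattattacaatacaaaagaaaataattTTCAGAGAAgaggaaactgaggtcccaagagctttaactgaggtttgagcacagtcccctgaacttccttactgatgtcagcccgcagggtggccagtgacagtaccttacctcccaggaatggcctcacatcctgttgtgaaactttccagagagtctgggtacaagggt

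The libraries differed in ways that touch these genes. They held 9.35 to 13.4 M reads, with the lowest depth in E(-)T(+). Hemoglobin symbols took 14.3% and 14.2% of reads in the normal control and normal exercise libraries, 1.43% in the cancer control and 31.4% in cancer exercise. The E(-)T(+) library stood apart in its markers: the summed normalized count of 9 lung epithelium and endothelium genes was 147543 there, against 657853 to 796552 in the other 3 libraries. The same list was present in all 4 libraries with no gene at 0 reads. Besides, 9 genes with a normalized count of at least 500 in the cancer control and 0 reads in the normal control had reads in the normal exercise library without exception, at 0.642 to 2.18% of the E(-)T(+) level, and the exercise effect without tumor is therefore also given with such shares taken out.

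Levels are given as recovered whole reads in a fixed order, both libraries without tumor first (control, then exercise), then the cancer control and last cancer exercise, followed by normalized read counts where a difference turns on them. Each of the 8 genes was highest in E(+)T(+) by normalized count. For Fpr1 the excess over E(+)T(-) was not beyond counting error. With library totals alone as scaling, Fpr1 was higher in E(+)T(-), at a log2 difference of -0.12 for E(+)T(+) over E(+)T(-). Of all tested genes, 22.3% were highest in E(+)T(+) by normalized count. For 7 of the 8, Fpr1 being the exception, the E(+)T(+) level was above each other library by 2-fold or more, against 4.93% of all tested genes. Together the 8 genes held 103, 158, 144 and 1413 CPM, or counts scaled to a common library total. Retnlg alone gave 9.91, 54.0, 69.2 and 1011 CPM of these, and without it E(-)T(+) was the lowest library.

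Retnlg was the most abundant of the 8 in E(+)T(+) and rarer than Fpr2 and Fpr1 in E(-)T(-). Its reads numbered 129, 690, 647 and 13518, or normalized counts of 110, 634, 709 and 15803. The exercised lung without tumor and the unexercised lung with tumor were close to each other, at a log2 ratio of 0.16 with a 95% exact interval from 0.00 to 0.32. Both stood well above the normal control and far below E(+)T(+). They exceeded the normal control 5.74-fold and 6.43-fold. The E(-)T(-) level was 0.693% of that in E(+)T(+).

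The formyl peptide receptors had a different order from the other 6 genes, with their lowest level in the cancer control. Fpr1 had 179, 198, 20 and 190 reads, or normalized counts of 152, 182, 22.0 and 222. Thus 3 libraries lay close together and E(-)T(+) alone was low. Normal exercise was not separated beyond counting error from the normal control or from cancer exercise. Cancer exercise and the normal control, at 222 and 152, were not compared in this way. Fpr2 had 872, 786, 212 and 2596 reads, or normalized counts of 741, 722, 232 and 3035. Fpr2 was the most abundant of the 8 genes in both libraries without tumor, which did not differ beyond counting error, and unlike Fpr1 it was well above them in E(+)T(+).

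The 3 ITAM-linked receptors shared 1 order, lowest in E(-)T(-) and highest in E(+)T(+). Trem1, which amplifies inflammatory signals, had 28, 54, 53 and 611 reads. Clec4e, or Mincle, a receptor for mycobacterial glycolipid and for material of dead cells, had 23, 72, 71 and 449 reads. In neither gene were E(+)T(-) and E(-)T(+) separated beyond counting error. Clec4d, a related C-type lectin, had 57, 172, 203 and 608 reads, with the smallest step of the 3 genes between the tumor libraries. In E(+)T(-) the levels of Trem1, Clec4e and Clec4d were 6.94%, 12.6% and 22.2% of those in E(+)T(+).

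Asprv1 had 11, 21, 108 and 837 reads, or normalized counts of 9.23, 19.2, 118 and 978. Its 2 libraries without tumor were not separated beyond counting error, and both lay below both tumor libraries. Csf3r was the least abundant of the 8 in E(+)T(+), with 39, 30, 32 and 82 reads, or normalized counts of 33.1, 27.5, 35.1 and 95.7. Its 3 lower libraries did not differ beyond counting error, and E(+)T(+) alone was high.

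**Figure D1:**
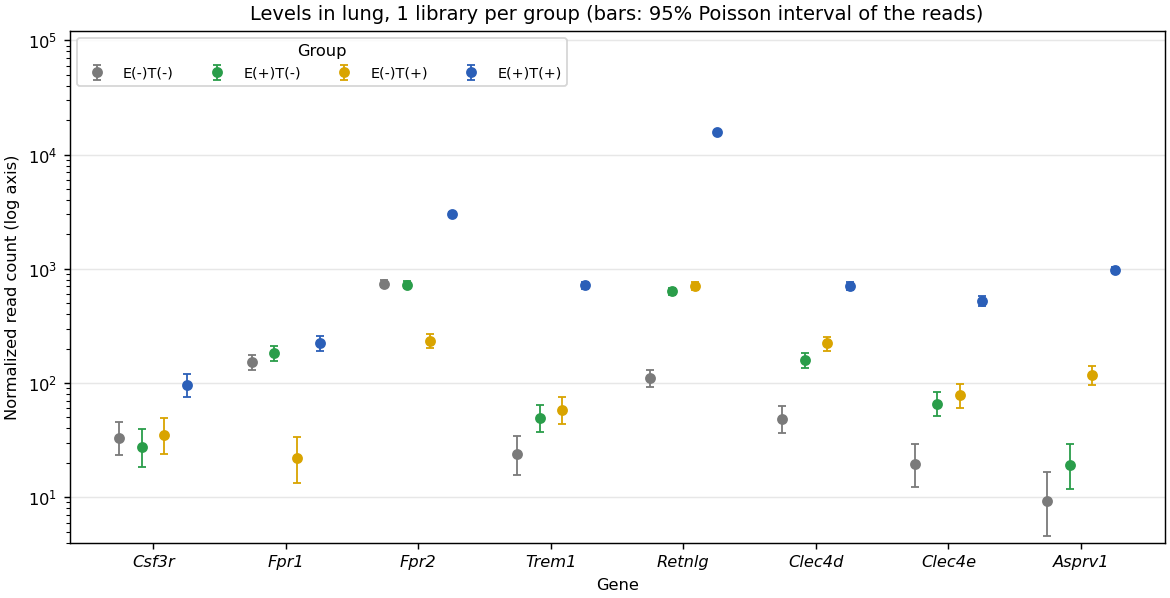
Normalized read counts (log axis) of the 8 measured genes in lung. Each point is 1 library of the group named in the legend, and bars are 95% Poisson intervals of the reads. E(+)T(+) is the highest point for every gene, up to 15803 for Retnlg, while the E(-)T(+) points of Fpr1 (22.0) and Fpr2 (232) are the lowest of their genes.

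The first comparison asked how exercise differed in lungs without tumor, E(+)T(-) over E(-)T(-). Retnlg, Clec4e, Clec4d and Trem1 were higher by 2-fold or more, so that 4 of 8 were higher and 0 were lower. Of all 15164 tested genes, 5.28% were higher and 4.70% lower by that limit, and the median log2 difference was 1.01 for the 8 genes against 0.00 for all. The log2 difference was 2.52 for Retnlg (95% exact interval of the read ratio 2.26 to 2.81). It was 1.72 for Clec4e (1.06 to 2.50) and 1.69 for Clec4d (1.27 to 2.16). Trem1, at 1.03 (0.38 to 1.77), and Asprv1, at 0.98 (-0.07 to 2.24), lay at the limit on either side of it. The receptors Fpr1, at 0.26 (-0.04 to 0.56), Fpr2, at -0.04 (-0.18 to 0.10), and Csf3r, at -0.26 (-1.0 to 0.46), were not separated between the libraries beyond counting error. With the E(-)T(+) share alone taken out of E(+)T(-), 4 genes were higher, the median was 0.93 and Trem1 was at 1.01. The share of E(+)T(+) used next was 0.623%, the lowest E(+)T(-) level relative to E(+)T(+) among 1651 genes with at least 1000 reads there. BC100530 alone set it, with 23 reads against 2893. With shares of both tumor libraries taken out of E(+)T(-), an alternative chosen after seeing the data, the differences were 2.25 for Retnlg, 1.62 for Clec4d, 1.62 for Clec4e, 0.87 for Trem1 and 0.28 for Asprv1, and 3 genes were higher, with a median of 0.58.

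The second comparison asked how tumor differed without exercise, E(-)T(+) over E(-)T(-). Here the genes divided: 5 of 8 were higher and 2, Fpr1 and Fpr2, were lower, against 20.6% higher and 25.7% lower of all tested genes. The median was 1.60, against -0.03 for all. Asprv1 had a log2 difference of 3.55 (2.77 to 4.71), Retnlg of 2.68 (2.42 to 2.98) and Clec4d of 2.18 (1.77 to 2.65). Those of Clec4e and Trem1 were 1.95 (1.30 to 2.74) and 1.26 (0.60 to 2.0). Csf3r, at 0.08 (-0.64 to 0.79), was not separated. Fpr1 was 6.66-fold lower, with a log2 difference of -2.74 (-3.54 to -2.13), and Fpr2 was 3.18-fold lower, at -1.67 (-1.90 to -1.46). All 9 lung epithelium and endothelium markers were lower in the same comparison, with a median of -2.73 and a range from -3.76 to -1.87. The part of this shift in the 2 lower values was not tested. Of 12 monocyte and macrophage markers, 7 were higher and 0 lower here (median 1.81), and their part in the 5 higher values was not tested.

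The third comparison asked how exercise differed in lungs with tumor, E(+)T(+) over E(-)T(+). All 8 genes were higher by 2-fold or more, against 24.3% higher and 17.7% lower of all tested genes. The median was 3.16, against 0.01 for all. Retnlg was 22.3-fold higher, with a log2 difference of 4.48 (4.36 to 4.59). Fpr2 was 13.0-fold higher, at 3.70 (3.51 to 3.92), Trem1 was at 3.59 (3.21 to 4.05), and Fpr1 was 9.70-fold higher, at 3.28 (2.67 to 4.09). Asprv1, at 3.04 (2.76 to 3.35), and Clec4e, at 2.74 (2.39 to 3.14), came next. Clec4d, at 1.67 (1.44 to 1.91), and Csf3r, at 1.42 (0.85 to 2.09), were the smallest. With library totals alone as scaling, Csf3r was at 0.83 and 7 of the 8 genes were higher. The shares of all tested genes were then 16.4% higher and 35.4% lower. The 9 lung markers were also higher in this comparison, 9 of 9 with a median of 2.63. The platelet genes Treml1 and Ppbp were higher by 3.70 and 3.34, and hemoglobin took 31.4% of reads against 1.43%. Of 12 monocyte and macrophage markers, 2 were higher and 4 lower (median -0.41). The part of these shifts in the values above was not tested.

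The fourth comparison, E(+)T(+) over E(+)T(-), does not use the E(-)T(+) library, and the lung markers were nearly level in it, with 0 of 9 higher, 1 lower and a median of -0.22. Other markers did move with it: 9 of 12 monocyte and macrophage markers were higher (median 1.80), the platelet genes Treml1 and Ppbp were higher by 2.48 and 2.11, and hemoglobin took 31.4% of reads against 14.2%. Their part in the values below was not tested. In this comparison 7 of 8 genes were higher and 0 lower, against 14.9% higher and 13.0% lower of all tested genes, with a median of 2.57 against -0.00. Asprv1 was 48.4-fold higher, with a log2 difference of 5.60 (5.04 to 6.36), and Retnlg was 24.9-fold higher, at 4.64 (4.53 to 4.75). The ITAM-linked receptors Trem1, Clec4e and Clec4d differed by 3.82 (3.45 to 4.28), 2.97 (2.63 to 3.37) and 2.16 (1.92 to 2.42). Fpr2 was higher by 2.07 (1.96 to 2.19) and Csf3r by 1.76 (1.18 to 2.45). Fpr1, at 0.29 (-0.01 to 0.58), was the gene inside the limit. With the E(-)T(+) share alone taken out of E(+)T(-), Asprv1 was at 5.73. With shares of both tumor libraries taken out, the alternative chosen after seeing the data, Asprv1 was at 6.30 and Retnlg at 4.91. In that alternative 7 genes were higher, with a median of 2.65.

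**Figure D2:**
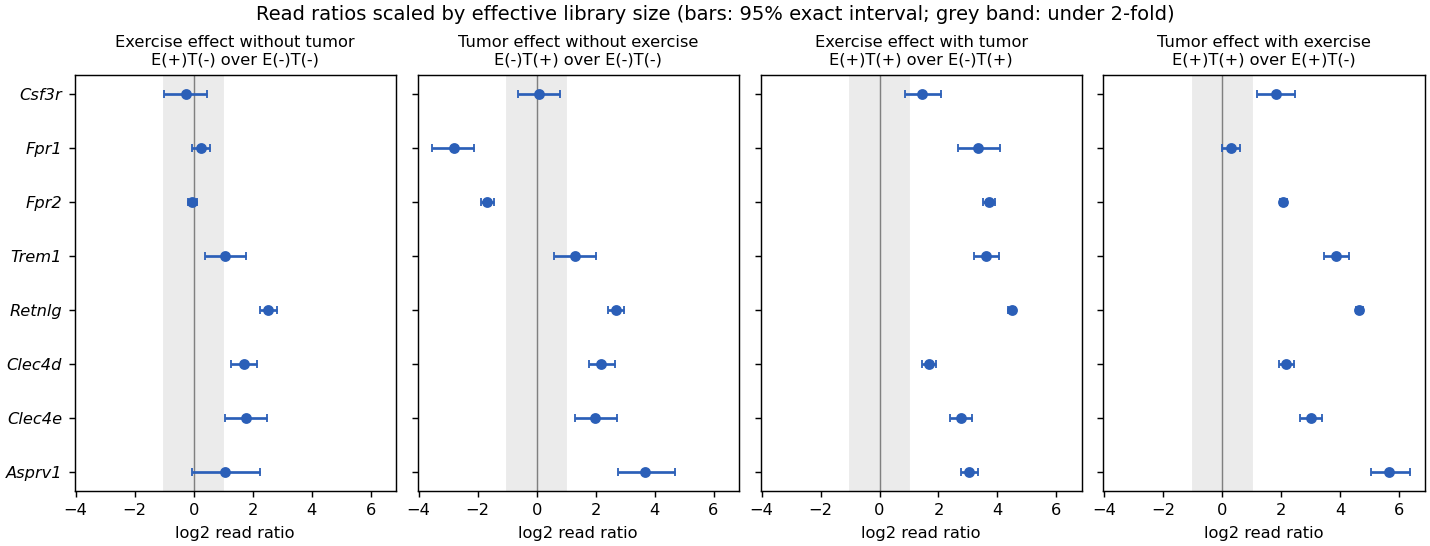
Log2 read ratios of the 8 genes between 2 libraries, scaled by effective library size, in the 4 comparisons. Bars are 95% exact intervals for counting error and the grey band marks differences under 2-fold. In the exercise effect with tumor every point is above 0, and in the tumor effect without exercise Fpr1 (interval -3.54 to -2.13) and Fpr2 (-1.90 to -1.46) are below it.

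The exercise effect with tumor and that without tumor use different libraries, and their difference, the first minus the second, was taken for each gene without a test. It was 3.74 for Fpr2, 3.02 for Fpr1, 2.56 for Trem1, 2.05 for Asprv1, 1.95 for Retnlg, 1.68 for Csf3r and 1.02 for Clec4e on the log2 scale. Clec4d was the exception at -0.02, with nearly the same exercise difference in both settings. The tumor comparisons cannot be set against the exercise comparisons in this way since they share libraries.

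Ratios of reads between genes of the same library do not depend on how the libraries were scaled, and in 3' mRNA-seq a transcript gives about 1 read position whatever its length. The pairs were chosen after the values were seen. Retnlg over Fpr1 was 0.721 (95% exact interval 0.570 to 0.909) in the normal control and 3.48 (2.97 to 4.10) with exercise alone. It was 32.4 (20.8 to 53.3) in the cancer control and 71.1 (61.7 to 82.5) in cancer exercise. The 4 intervals do not overlap, so the balance of these 2 transcripts differed in every library beyond counting error. Trem1 over Csf3r was 0.718 (0.425 to 1.20), 1.80 (1.13 to 2.91), 1.66 (1.05 to 2.65) and 7.45 (5.91 to 9.50), with E(+)T(+) apart from the rest. Asprv1 over Csf3r was 0.282 (0.130 to 0.562), 0.700 (0.381 to 1.26), 3.38 (2.26 to 5.18) and 10.2 (8.13 to 13.0), and the libraries with tumor lay above those without.

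The neighbouring genes were compared in the same way. Fpr2 over Fpr1 was 4.87 (4.14 to 5.75) and 3.97 (3.39 to 4.66) without tumor, and 10.6 (6.69 to 17.7) and 13.7 (11.8 to 15.9) with tumor. The intervals with and without exercise overlapped within either setting, while both tumor libraries lay above both libraries without tumor. Clec4d over Clec4e was 2.48 (1.5 to 4.21), 2.39 (1.80 to 3.19) and 2.86 (2.17 to 3.80) in the first 3 libraries and 1.35 (1.20 to 1.53) in E(+)T(+). That last interval overlapped the one for E(-)T(-), which rests on 57 and 23 reads, and lay below those of E(+)T(-) and E(-)T(+). Against S100a8, the most abundant neutrophil marker in E(+)T(+), Retnlg stood at 0.0802, 0.147, 0.181 and 0.175, and Fpr1 at 0.111, 0.0423, 0.00561 and 0.00246. In the 3 libraries other than the normal control, Retnlg was thus higher relative to S100a8 than in the control and Fpr1 lower.

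**Figure D3:**
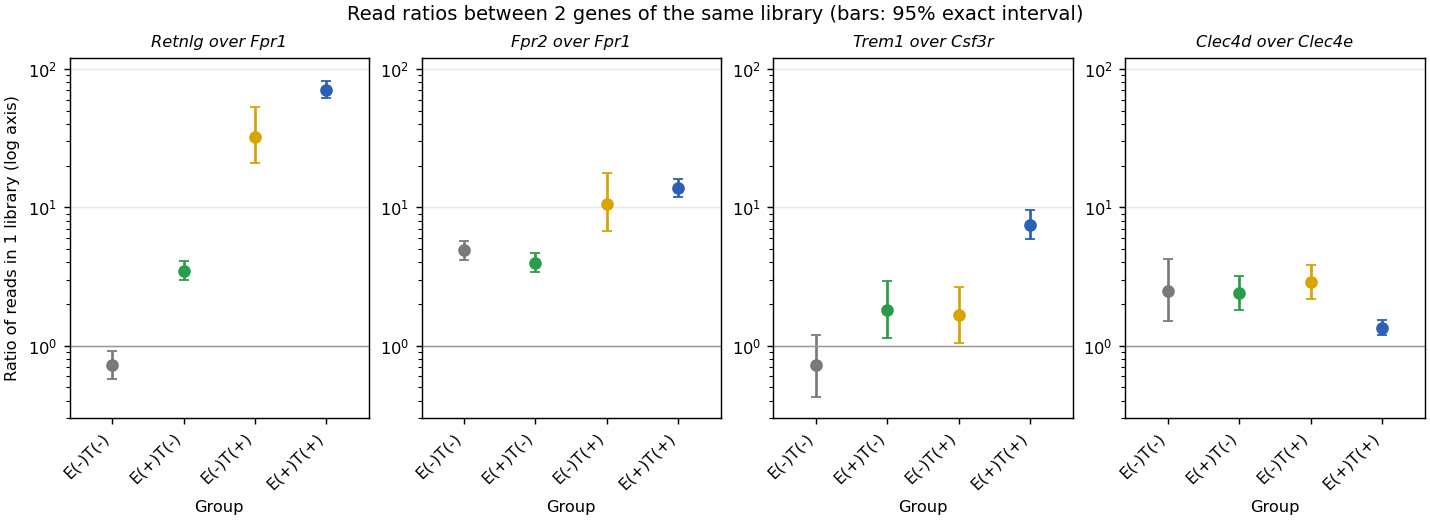
Ratios of reads between 2 genes of the same library (log axis) for 4 pairs, by group. Bars are 95% exact intervals and the horizontal line marks equal reads. Retnlg over Fpr1 goes from 0.721 in E(-)T(-) to 71.1 in E(+)T(+), and Clec4d over Clec4e is lowest in E(+)T(+) at 1.35.

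Other neutrophil genes were read from lists, whose counts are of the genes that passed the filter. Over all tested genes, 5.28% were higher and 4.70% lower in the exercise effect without tumor. In the tumor effect without exercise the shares were 20.6% and 25.7%. They were 24.3% and 17.7% in the exercise effect with tumor, and 14.9% and 13.0% in the tumor effect with exercise. The 8 defining markers had 7 higher and 0 lower in the exercise effect without tumor (median 1.73), 6 higher and 1 lower with tumor without exercise (1.76), 8 higher in the exercise effect with tumor (3.79) and 8 higher in the tumor effect with exercise (4.07). S100a8, a subunit of calprotectin, had 1608, 4680, 3567 and 77269 reads, and its partner S100a9 had 2536, 7143, 3818 and 75784. The marker lower in E(-)T(+) was Mrgpra2b, with 2, 9, 0 and 87 reads. The summed normalized count of the defining markers was 3819, 11633, 9933 and 196067, and that of the 8 measured genes was 1136, 1858, 1476 and 22082. Both sums were lowest in E(-)T(-) and highest in E(+)T(+). Retnlg alone gave 110, 634, 709 and 15803 of the sum of the measured genes. Without Retnlg that sum was lowest in E(-)T(+) and still highest in E(+)T(+).

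Granule genes, which mark precursors more than mature cells, were also read. Of 5 primary granule genes, 1 was higher and 1 lower in the exercise effect without tumor, where each library had 10 or fewer reads of the list in all. In the tumor effect without exercise 4 of 5 were higher (median 2.62). In the exercise effect with tumor 4 of 5 were (median 3.47), and in the tumor effect with exercise 5 of 5 (median 5.73). Elane, Ctsg and Ms4a3 had 0 reads in both libraries without tumor, so they passed the filter only through tumor libraries. Their counts as higher with tumor partly follow from that filter. In E(-)T(+) and E(+)T(+) they had 1 and 51, 24 and 45, and 0 and 25 reads. The rise of Elane in the tumor effect without exercise was thus 1 read against 0, under the floor of 3 reads. Prtn3, encoding proteinase 3, had 9, 3, 47 and 243 reads. Of 9 secondary and tertiary granule genes, 8 were higher in the exercise effect with tumor (median 2.75), and 1, Ltf, encoding lactoferrin, was lower at -1.40. Mmp8, encoding neutrophil collagenase and also among the defining markers, had 64, 208, 409 and 6983 reads, and Ngp, encoding neutrophilic granule protein, had 25, 175, 152 and 2608. In the tumor effect without exercise 6 were higher and 1 lower (median 1.69), and all 9 were higher in the tumor effect with exercise (median 3.44).

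Partners of Csf3r and of the formyl peptide receptors were read next. Of 11 genes of the G-CSF axis, 5 were higher and 0 lower in the exercise effect with tumor (median 0.87), 2 were higher and 4 lower in the tumor effect without exercise (median -0.10), near the shares of 20.6% and 25.7% over all tested genes, and 3 were higher and 0 lower in the tumor effect with exercise (median 0.52). Spi1, encoding PU.1, had 239, 265, 251 and 888 reads, and Csf2rb, the common beta chain of related cytokine receptors, had 343, 306, 328 and 818. Like Csf3r, both were high in E(+)T(+) alone. Csf3, encoding G-CSF itself, had 0, 1, 2 and 2 reads, at or under the floor of 3 reads in every library. Of the other formyl peptide receptor and ligand genes, 5 passed the filter, and all 5 encode ligands or their precursors: Anxa1, Saa1, Saa2, Saa3 and Camp. These 5 were higher in the tumor effect without exercise (median 3.56), where the receptors Fpr1 and Fpr2 were lower. In the exercise effect with tumor 3 were higher and 1 lower (median 1.66), and in the tumor effect with exercise 4 were higher and 0 lower (median 4.39). Anxa1, encoding annexin A1, a ligand of Fpr2, had 854, 748, 3920 and 1028 reads, with log2 differences of 2.56 in the tumor effect without exercise and -1.84 in the exercise effect with tumor, opposite in direction to those of Fpr2 there, and of 0.81 in the tumor effect with exercise, in the same direction as Fpr2. Camp, encoding the cathelicidin precursor, had 23, 75, 59 and 649 reads.

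The adaptors and kinases on which Trem1, Clec4d and Clec4e rely were nearly level in lungs without tumor, with 0 of 10 higher and 0 lower (median 0.04). In the tumor effect without exercise 0 were higher and 4 lower (median -0.80), in the exercise effect with tumor 9 were higher and 0 lower (median 1.87), and in the tumor effect with exercise 7 were higher and 0 lower (median 1.17). Syk had 328, 355, 85 and 670 reads, so that it was lowest in E(-)T(+), as Fpr1 and Fpr2 were, and unlike the 3 receptors. Of 14 TREM and C-type lectin relatives, 5 were higher and 4 lower in the tumor effect without exercise. Over all tested genes the shares were 20.6% and 25.7%, and the count of lower relatives was near the latter. In the exercise effect with tumor 10 were higher and 0 lower (median 1.52). In the tumor effect with exercise 9 were higher and 0 lower (median 1.78). Treml1, a platelet receptor, had 274, 635, 228 and 2783 reads and Clec12a, an inhibitory lectin of myeloid cells, had 95, 123, 21 and 308. Of 3 other resistin-like genes, 2 were higher and 0 lower in the exercise effect with tumor, and 2 were higher and 1 lower in the tumor effect with exercise. Retnla, known from macrophages and airway epithelium, had 814, 1333, 2685 and 15410 reads.

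Of 13 chemoattractant receptor and adhesion genes, 9 were higher and 0 lower in the exercise effect with tumor (median 2.07). Over all tested genes the shares were 24.3% and 17.7%. In the tumor effect without exercise 5 were higher and 4 lower (0.19), against 20.6% and 25.7% of all tested genes. In the tumor effect with exercise 10 were higher and 0 lower (1.90), against 14.9% and 13.0%. Itgal, encoding an integrin chain of many leukocytes, had 733, 533, 60 and 535 reads and shared with Fpr1 a low value in E(-)T(+) alone. Of 6 neutrophil chemokines, 4 were higher and 0 lower in the exercise effect with tumor (median 2.38), 1 was higher and 3 lower in the tumor effect without exercise (-0.94), and 3 were higher and 1 lower in the tumor effect with exercise (0.18). Cxcl2 had 37, 40, 71 and 671 reads and Ppbp, a chemokine precursor of platelets, had 863, 1407, 504 and 4782. The 3 lower in the tumor effect without exercise were Cxcl5, Cxcl12 and Cxcl15, each highest in E(+)T(-) and not in E(+)T(+). Cxcl15 had the most reads of the list in every library, at 23247, 38336, 2216 and 18555. Of 7 Ly6 family genes other than Ly6g, 5 were higher and 0 lower in the exercise effect with tumor (median 2.45), 0 were higher and 3 lower in the tumor effect without exercise (-0.82) and 3 were higher and 1 lower in the tumor effect with exercise (0.47). Ly6c2, a marker of inflammatory monocytes, had 543, 708, 240 and 2429 reads.

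Markers of other cells that can express some of these genes were read beside them. Of 12 monocyte and macrophage markers, 0 were higher or lower in the exercise effect without tumor, 7 were higher and 0 lower in the tumor effect without exercise (median 1.81), 2 were higher and 4 lower in the exercise effect with tumor (median -0.41), and 9 were higher in the tumor effect with exercise (median 1.80). Their summed normalized count was 3348, 3233, 13422 and 9086, with no marker at 0 reads. Ccr2 had 413, 325, 187 and 741 reads and Adgre1 had 208, 149, 84 and 219. The list was split: Ccr2 and Adgre1 were lowest in E(-)T(+), as Fpr1 and Fpr2 were, while the complement genes C1qa, C1qb and C1qc, with 3387, 1994 and 2583 reads there, carried most of the sum in that library. Eosinophil markers summed to 84.2, 166, 11.2 and 51.5, with 4, 1, 4 and 3 of 7 at 0 reads. Epidermal markers, read because Asprv1 is also made in skin, summed to 156, 173, 363 and 143, with 5, 3, 3 and 2 of 9 at 0 reads, and Krt10 had 120, 111, 263 and 43 reads. Of the 5 epidermal markers that passed the filter, 1 was higher and 1 lower in the exercise effect without tumor. In the tumor effect without exercise, where Asprv1 was higher, 2, Krt5 and Krt10, were higher and 0 lower. In the exercise effect with tumor 0 were higher and 2, Krt5 and Krt10, lower. In the tumor effect with exercise 2, Krt5 and Lor, were higher and 1, Krt10, lower. The Krt5 rise there was a change from 0 to 1 read, below the 3-read floor. Lor had 13 reads with tumor and 5 without.

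**Figure D4:**
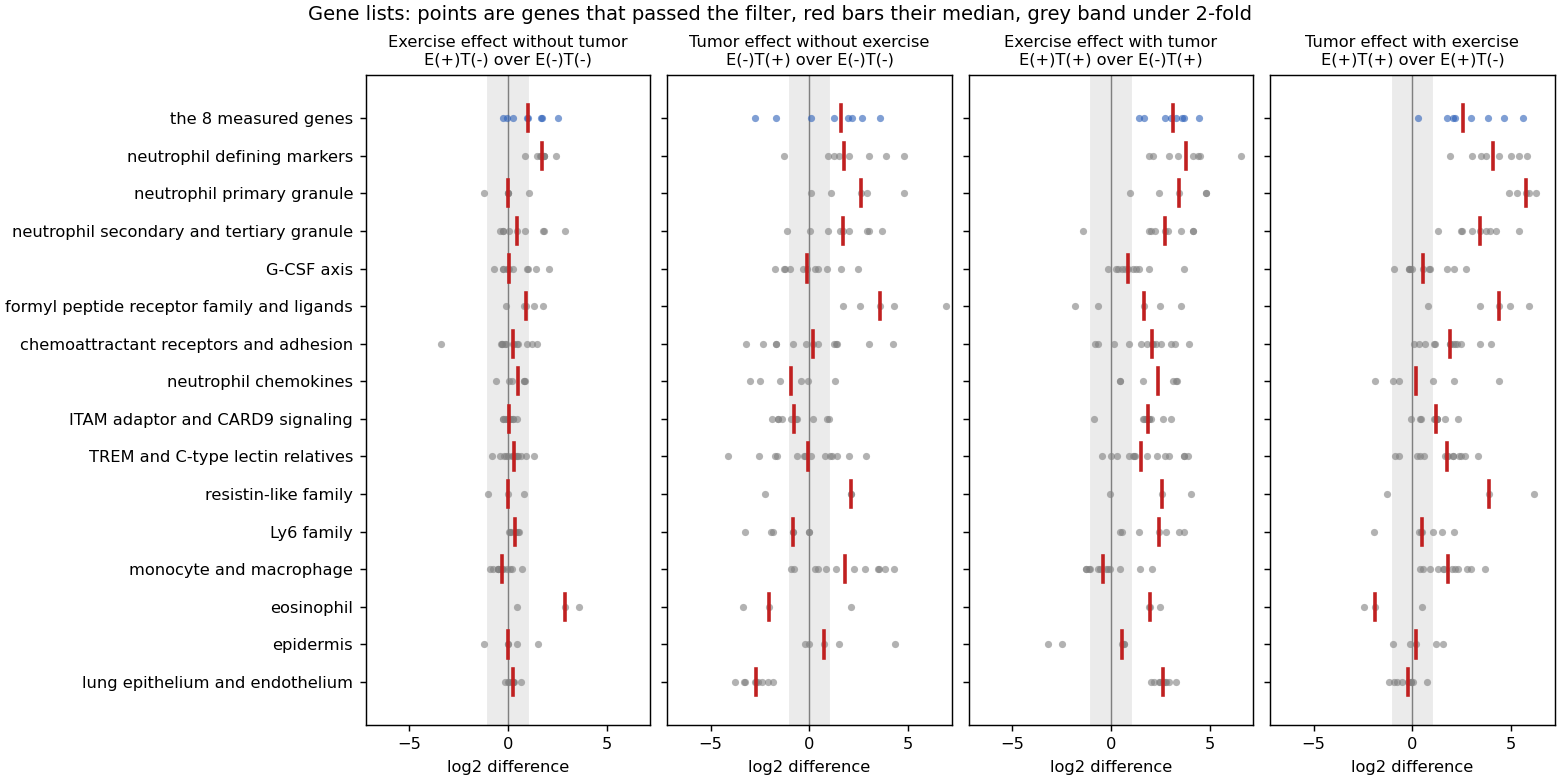
Log2 differences of the 8 measured genes (top) and of the genes in 15 lists in the 4 comparisons. Points are genes that passed the filter, red bars are medians and the grey band marks differences under 2-fold. The 8 genes have medians of 1.01, 1.60, 3.16 and 2.57, and the lung epithelium and endothelium list moves from -2.73 in the tumor effect without exercise to 2.63 in the exercise effect with tumor.

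The genes whose profile over the 4 libraries was closest to the median profile of the 8 genes were sought among 11209 candidates, by Euclidean distance between log2 profiles centred on their own mean. They were Maff, encoding a small basic leucine zipper factor, at 0.234, Gp1bb, a platelet glycoprotein gene, at 0.425, Ltb4r1, encoding the leukotriene B4 receptor, at 0.534, Trpm2, encoding a calcium channel, at 0.575, and Gp5, another platelet glycoprotein gene, at 0.620. Maff had 137, 332, 344 and 1865 reads. Of the 8 genes themselves, Clec4e was closest to their median profile at 0.450, followed by Clec4d at 0.719 and Trem1 at 0.869. Csf3r, Retnlg, Fpr2 and Asprv1 lay at 1.89, 2.18, 2.32 and 2.48, and Fpr1 was the farthest at 3.49. A distance over 4 libraries describes these libraries only.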

How the data were processed

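Lung RNA of 4 groups was measured with 1 library each, so no group has replicates. RNA was extracted with TRIzol, and the authors made QuantSeq 3' mRNA-Seq libraries, primed at the poly(A) tail, aligned the reads with Bowtie2, counted them with bedtools coverage and applied the quantile normalization of edgeR, per the study's methods and the submitters' processing notes, which name the mm10 build. Versions, annotation and the use of strand are not given in the sources used here, so overlapping genes can share reads. The deposited values are log2(normalized count + 1) at 3 decimals, made by the authors.

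Whole reads were recovered from the deposited log2 values by inverting the negative binomial quantile adjustment (Python 3.11.15, numpy 2.4.6, scipy 1.17.1), with a fitted dispersion of 0.372. This gave back 100% of the values within 0.001. Counts up to 1442 were resolved to 1 read, and higher ones carry a small rounding error. The step was tested on simulated data.

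Differences are of deposited log2 values and understate the change of low genes. A gene counted as higher or lower at a 2-fold or larger difference, among rows whose normalized counts averaged 4 or more. Intervals are 95% exact (Clopper-Pearson) for read ratios and 95% Poisson for reads. They cover counting error only, as no molecular identifiers mark PCR copies. A floor of 3 reads was 0.230, 0.235, 0.321 and 0.224 CPM, or counts scaled to a common library total, in the order of libraries used above. No test was made. The genes and lists were chosen with earlier results of these data known. Named were all 8 measured genes, in each list up to 2 genes with the largest exercise difference with tumor among those averaging 50 or more normalized counts, and the 5 most alike genes. Some of the genes this rule names are not reported here. A few further list genes were named for their role or as the exception to a count, after their values were seen. Alternatives were another pseudocount, no filter or a higher filter, 3 other scalings, reads without the quantile adjustment, and shares of tumor libraries taken out of E(+)T(-).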

Additional observations from a re-analysis of the deposited data

Results flagged for a closer look

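For 3 genes an effect had opposite signs in its 2 settings. With 1 library per group these differences between settings were not tested. The exercise difference of Csf3r was -0.26 without tumor and 1.42 with tumor on the log2 scale. That of Fpr2 was -0.04 without tumor and 3.70 with tumor. For both genes the counting interval without tumor holds 0. The tumor difference of Fpr1 was -2.74 without exercise and 0.29 with exercise, and the interval of the latter holds 0. The tumor difference of Fpr2 was -1.67 without exercise and 2.07 with exercise, and this was the pair for which both counting intervals leave out 0.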

How the results depend on the processing

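Of 252 differences of the 8 genes recomputed under the alternatives, 237 moved by less than their counting interval and 15 by more. None that passed the 2-fold limit changed sign. With library totals alone as scaling, the median of the 8 genes was 2.56 in the exercise effect with tumor and 2.15 in the tumor effect with exercise. The median of all tested genes then moved to -0.59 and -0.41, the shares of all tested genes higher and lower moved to 16.4% and 35.4% in the former and 9.50% and 24.2% in the latter, and values are best read relative to that shift. Under it Csf3r came inside the limit in the exercise effect with tumor, at 0.83, and Fpr1 turned to -0.12 in the tumor effect with exercise. Totals without hemoglobin moved the median of all genes to -0.08, -0.09 and -0.13 in the exercise effect with tumor, the tumor effect with exercise and the tumor effect without exercise. With a mean normalized count of at least 50, Csf3r dropped out and the median of the other 7 was 2.97 in the tumor effect with exercise. Trem1 in the exercise effect without tumor, at 1.03, came inside the limit at 0.95 with a pseudocount of 4, 0.95 with totals alone, 0.94 without hemoglobin and 0.87 with both tumor shares taken out. Of the 8 genes, the counts past the limit stayed within 1.5 times under every alternative run. No paired analysis was possible because each group has 1 library, and none could be left out. Differences of Csf3r and of Asprv1 without tumor rest on 11 to 39 reads a library.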
